A study of Mus musculus with 8 samples.

Results

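Translation initiation and elongation factors are the proteins that bring messenger RNA, initiator tRNA and the ribosomal subunits together and then carry aminoacyl-tRNAs through the ribosome. They were chosen by gene symbol, as all genes of the deposited table whose name starts with Eif and a digit from 1 to 6 or with Eef and 1 or 2, without the eIF2 kinases (Eif2ak names), the eEF2 kinase *Eef2k* and names marked as pseudogenes. The rule found 60 of 47493 genes, and 54 of them had a mean of at least 1 FPKM over the 8 libraries and were tested. FPKM, the unit of every level below, is fragments normalised to transcript length and to the number of mapped fragments, so that levels can be set side by side between genes.

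Libraries came from 4 female C57BL/6 mice of 6 to 8 weeks of age that had received 200000 B16F10 melanoma cells. Every mouse had the same regimen, with 300 mg/kg cyclophosphamide on day 3, 2000000 Pmel-1 T cells (Thy1.1-marked CD8+ T cells with a transgenic receptor for a melanoma antigen) on day 5, 10000 IU of IL-2 on 3 days and 200 μg of the CD4-depleting antibody GK1.5 weekly from day 10. On day 25, endogenous (Thy1.1-negative) CD8+ T cells of inguinal lymph nodes and spleen were isolated with beads and passed over a magnetic column that retained cells stained for IL-18Rα. The retained cells (IL-18Rαhi-enriched, n = 4) were compared with the cells that ran through the same column (flow-through, n = 4), so both fractions had been exposed to the tumor, the drug, the transferred cells and the antibody, and no untreated cells were measured.

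Initiation starts when eIF2 carries the initiator tRNA to the small ribosomal subunit, which holds eIF1, eIF1A, eIF3 and eIF5 and is recruited to the capped mRNA by eIF4F (the cap-binding eIF4E, the scaffold eIF4G and the helicase eIF4A). eIF2B recharges eIF2 with GTP, eIF5B joins the large subunit, and during elongation eEF1A delivers aminoacyl-tRNA, the eEF1B subunits recharge eEF1A, and eEF2 moves the ribosome along. In T cells, translation rises steeply after activation, and cap-dependent initiation is restrained by eIF4E-binding proteins that mTORC1 phosphorylates. Messenger RNAs of many elongation factors and of some eIF3 subunits begin with a terminal oligopyrimidine (TOP) tract, which places their own translation under mTORC1.

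The labelled selection was visible in the libraries. *Il18r1*, which encodes IL-18Rα, was at 30.6 ± 6.96 FPKM in flow-through cells against 111 ± 3.87 FPKM in enriched cells (log2 fold change 1.85, SE 0.15, limma adjusted p = 0.00029). *Cd4* was low in all libraries but higher in the enriched ones, at 0.310, 0.574, 0.489 and 1.28 FPKM in flow-through replicates 1 to 4 and 1.80, 3.44, 2.58 and 7.90 FPKM in the enriched replicates (log2 fold change 1.46, SE 0.35, limma adjusted p = 0.017), higher in 4 of 4 mice without overlap. *Cd8a* was at 289 ± 76.2 FPKM in flow-through cells against 374 ± 12.3 FPKM in enriched cells (SD, n = 4 for these and all values given with ±). This difference did not pass the test (log2 fold change 0.41, SE 0.19, limma adjusted p = 0.14). The 8 T-cell genes examined summed to 1280 FPKM in flow-through replicate 1, 2048 to 2427 FPKM in the remaining flow-through libraries and 2403 to 2578 FPKM in the enriched libraries. Of the 8, only *Zap70* passed as higher (log2 fold change 0.64, limma adjusted p = 0.026, or 0.010 with the mouse as a block). The summed level of 12 erythroid genes was 993 to 3183 FPKM among flow-through libraries and 243 to 1643 FPKM in the enriched libraries, was highest in replicate 1 of both fractions, and 4 of the 12 passed as lower, or 9 with the mouse as a block. The 12 proliferation genes summed to 1124 to 1877 FPKM and 1588 to 2263 FPKM, with 5 higher (8 with the block), and the 7 naive T-cell genes to 634 to 1319 FPKM and 803 to 948 FPKM, with 2 lower (3 with the block). Myeloid genes (11, summing to 673 to 3565 and 980 to 4526 FPKM) were higher for 4 genes (7 with the block, and 1 lower), natural killer cell genes (6, summing to 13.0 to 24.4 and 35.3 to 84.9 FPKM) for 4 in both fits, and B-cell and plasma-cell genes (8, summing to 308 to 1262 and 545 to 1500.5 FPKM) for 0 of the 7 tested by limma without the mouse as a block, 4 with it, and 1 at an unadjusted p under 0.05. Over all genes tested, 13.7% were lower and 14.1% higher without the block, and 22.7% and 22.2% with it. No gene of these lists was at 0 in all libraries. The part of these other cells in the results below was not tested, and in bulk RNA fewer cells of a type cannot be told apart from less RNA per cell.

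Translation factors were lower in the IL-18Rαhi-enriched fraction or did not pass the test, and none passed as higher. Of the 54 factors tested, 17 were lower at an adjusted p under 0.05, where 13.7% of all 12166 genes tested were lower, and 0 were higher, where 14.1% of all genes were. Without adjustment, 29 were lower and 2 higher at a limma p under 0.05, where 21.3% and 20% of all genes were. The median log2 fold change of the 54 factors was -0.27, against -0.018 over all genes tested, with a range from -0.82 (*Eif4ebp1*) to 0.64 (*Eif4e3*). With the mouse as a block 32 factors were lower, where 22.7% of all genes were, and 2 (*Eif4e3* and *Eif5a2*) were higher, where 22.2% of all genes were. All 17 factors called without the block were among the 32.

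Every flow-through library exceeded every enriched library for 20 factors, where 15.9% of all genes had such separation downward, and 0 factors had the reverse, where 16.4% of all genes did. Within mice, 34 factors were lower in the enriched fraction in 4 of 4 mice (30.6% of all genes) and 4 were higher in 4 of 4 (29.2% of all genes). The median factor differed by -0.34, -0.12, -0.35 and -0.24 on the log2 scale in mice 1 to 4. Mouse 2 thus had the smallest difference, yet 38 of the 54 factors were lower in it.

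**Figure D1:**
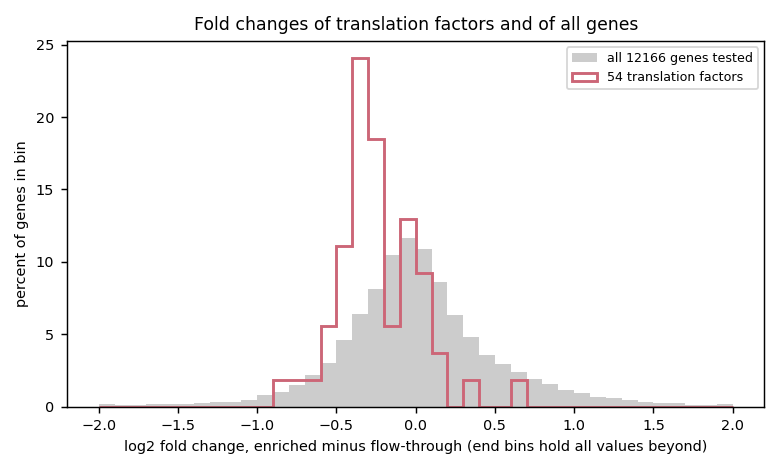
Distribution of log2 fold changes (x axis, enriched minus flow-through, on log2(FPKM + 1)) for the 12166 genes tested (grey bars) and the 54 translation factors (red outline), as percent of genes per bin (y axis). The factors pile up to the left of 0 around their median of -0.27, while all genes center on -0.018.

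The factors together held 2.93, 2.43, 2.82 and 2.65% of the summed FPKM in flow-through replicates 1 to 4 and 2.35, 2.07, 2.26 and 2.05% in the enriched replicates. Thus the share was lower in all enriched libraries than in any flow-through library. *Eef1a1* alone held 41.2 ± 2.36% of the factors' sum among flow-through libraries and 40.6 ± 0.683% in the enriched fraction (SD, n = 4). Levels spanned from 2.54 FPKM (*Eif5a2*) to 7596 FPKM (*Eef1a1*) among the flow-through means of factors that passed the filter.

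**Figure D2:**
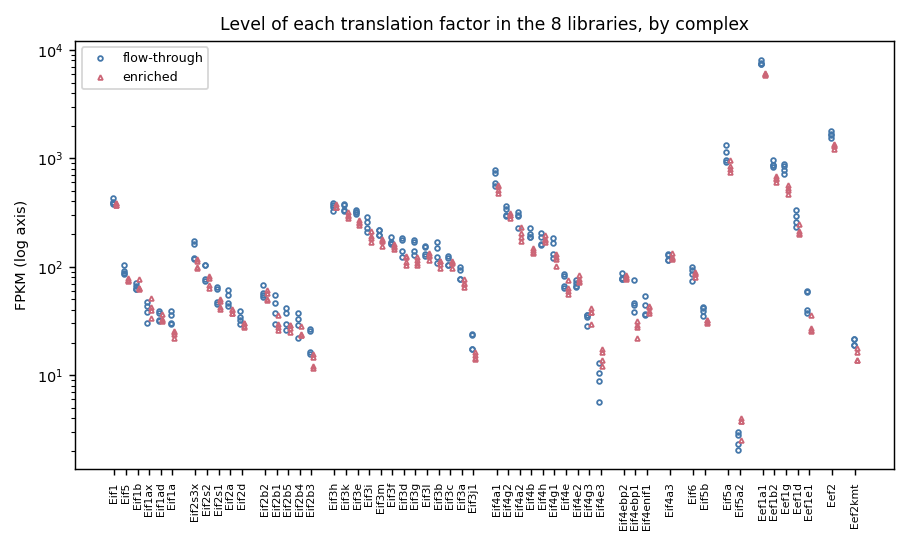
Level of the 54 tested factors (y axis, FPKM on a log axis) in the 4 flow-through libraries (blue circles) and the 4 enriched libraries (red triangles), ordered by complex and by flow-through level within it. *Eef1a1* lies above all others and *Eif5a2* below all others.

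Elongation factors were lower in 4 of 4 mice for every gene tested, where 30.6% of all genes were. Of the 6 tested genes of eEF1 and eEF2, 5 were lower and 0 higher without the block, and 6 were lower with it. Over all genes tested, 13.7% were lower without the block and 22.7% with it. The median log2 fold change of the 6 was -0.40. *Eef1a1* (chr9:78478449-78489151, minus strand, protein-coding), whose product brings aminoacyl-tRNA to the ribosome, was at 7411, 7426, 7519.6 and 8028 FPKM in flow-through replicates 1 to 4 and 6169, 5989.7, 5959 and 5816 FPKM in the enriched replicates. Every enriched library was below every flow-through library (log2 fold change -0.34, SE 0.07, limma adjusted p = 0.011). The gene has many processed pseudogenes, so the assignment of its reads is less certain than its high level implies. Its tissue-restricted paralog *Eef1a2* was at 0 in all libraries except enriched replicate 1 (0.0818 FPKM).

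The eEF1B subunits exchange GDP for GTP on eEF1A. *Eef1g* (chr19:8967041-8978479, plus strand), the scaffold subunit, was at 889, 713, 847 and 784 FPKM in flow-through replicates 1 to 4 and 565, 505, 529 and 471 FPKM in the enriched replicates. The fractions did not overlap (log2 fold change -0.64, SE 0.09, limma adjusted p = 0.0027). *Eef1b2* (chr1:63176825-63180486, plus strand), a nucleotide exchange subunit, was at 835, 861, 875 and 955 FPKM in flow-through replicates 1 to 4 and 686, 603, 650.4 and 653 FPKM in the enriched replicates, again without overlap (log2 fold change -0.44, SE 0.08, limma adjusted p = 0.0047). The other exchange subunit, *Eef1d*, was at 334, 234, 295 and 256 FPKM in the flow-through against 247, 203, 213 and 201 FPKM in the enriched libraries. Here the fractions overlapped, as enriched replicate 1 lay above flow-through replicate 2, and the difference did not pass without the block (log2 fold change -0.36, SE 0.12, limma adjusted p = 0.058) but did with it (adjusted p = 0.0064). *Eef1e1*, named with this family but known as a scaffold protein of the multi-tRNA synthetase complex, was at 57.9, 37.2, 59.5 and 40.1 FPKM in the flow-through against 36.1, 26.3, 27.0 and 25.6 FPKM in the enriched libraries (log2 fold change -0.72, SE 0.18, limma adjusted p = 0.021). Its enriched replicate 1 was well above the other enriched libraries and still below all flow-through libraries.

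The translocase gene *Eef2* (chr10:81176631-81182498, plus strand) was at 1789, 1538, 1648 and 1676 FPKM in flow-through replicates 1 to 4 and 1347, 1326, 1297 and 1229.8 FPKM in the enriched replicates. All enriched libraries lay below all flow-through libraries (log2 fold change -0.35, SE 0.08, limma adjusted p = 0.011). *Eef2kmt*, which encodes a lysine methyltransferase acting on eEF2, was at 18.8, 18.8, 21.7 and 21.4 FPKM in the flow-through against 13.7, 18.0, 13.7 and 16.4 FPKM in the enriched libraries (log2 fold change -0.37, SE 0.11, limma adjusted p = 0.034). Its fractions did not overlap, but they came within 1 FPKM of each other.

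Within a library, the ratio of 2 factors does not depend on how libraries are scaled. *Eef1g* was at 0.120, 0.0960, 0.113 and 0.0977 times *Eef1a1* in flow-through replicates 1 to 4 and at 0.0915, 0.0844, 0.0887 and 0.0809 times in the enriched replicates. The scaffold was therefore lower relative to eEF1A in all enriched libraries, while both genes were lower.

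Among initiation factors, the 13 tested eIF3 subunits ranged in fold change from -0.42 to 0.009, with a median of -0.29. eIF3 is the largest initiation factor and forms the platform on the small subunit. *Eif3g*, *Eif3j1*, *Eif3e* and *Eif3m* were lower, 0 of the 13 were higher, and with the mouse as a block 9 were lower. Of all genes tested, 13.7% were lower without the block and 22.7% with it. *Eif3g*, an RNA-binding subunit, was at 175, 127, 167 and 138 FPKM in flow-through replicates 1 to 4 and 122, 109, 116 and 104 FPKM in the enriched replicates (log2 fold change -0.42, SE 0.11, limma adjusted p = 0.028). *Eif3e* was at 305, 323, 331 and 319 FPKM in flow-through replicates 1 to 4 and 270.4, 242, 259 and 253 FPKM in the enriched replicates (log2 fold change -0.32, SE 0.07, limma adjusted p = 0.0098). It was the most even of the subunits within the flow-through, and all of its enriched libraries were lower.

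*Eif3m* was at 216, 196, 217 and 194 FPKM in the flow-through against 182, 156, 176 and 174 FPKM in the enriched libraries (log2 fold change -0.26, SE 0.08, limma adjusted p = 0.037). *Eif3j1*, a loosely bound subunit with the lowest level of the tested subunits, was at 23.5, 17.6, 24.2 and 17.4 FPKM in the flow-through against 16.2, 14.3, 15.4 and 14.2 FPKM in the enriched libraries (log2 fold change -0.42, SE 0.12, limma adjusted p = 0.037). For both, the fractions stood apart without overlap. *Eif3j2*, a near copy of *Eif3j1* on another chromosome, stayed under the filter at 0.271 to 0.543 FPKM among flow-through libraries and 0.184 to 0.246 FPKM in the enriched fraction, and reads of the copies may have been divided between them. Their ratio (*Eif3j1* to *Eif3j2*) was 43.3, 59.6, 65.9 and 64.1 on the flow-through side and 79.4, 77.8, 62.7 and 66.3 on the enriched side, higher in 3 of 4 mice with overlap.

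The most abundant subunit, *Eif3h*, did not pass the test. It was at 327, 386, 353 and 371 FPKM in flow-through replicates 1 to 4 and 375, 358, 353 and 357 FPKM in the enriched replicates (log2 fold change 0.01, SE 0.07, limma adjusted p = 0.94), and the fractions overlapped fully. *Eif3c* (-0.07), *Eif3f* (-0.15) and *Eif3l* (-0.16) had small log2 fold changes that passed neither without nor with the block. The remaining 5 subunits passed only with the block, namely *Eif3d* (log2 fold change -0.40, adjusted p = 0.056 without and 0.0075 with it), *Eif3i* (-0.35, 0.051 and 0.0069), *Eif3b* (-0.34, 0.095 and 0.025), *Eif3a* (-0.29, 0.068 and 0.024) and *Eif3k* (-0.23, 0.059 and 0.025). Differences between subunits were not tested.

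**Figure D3:**
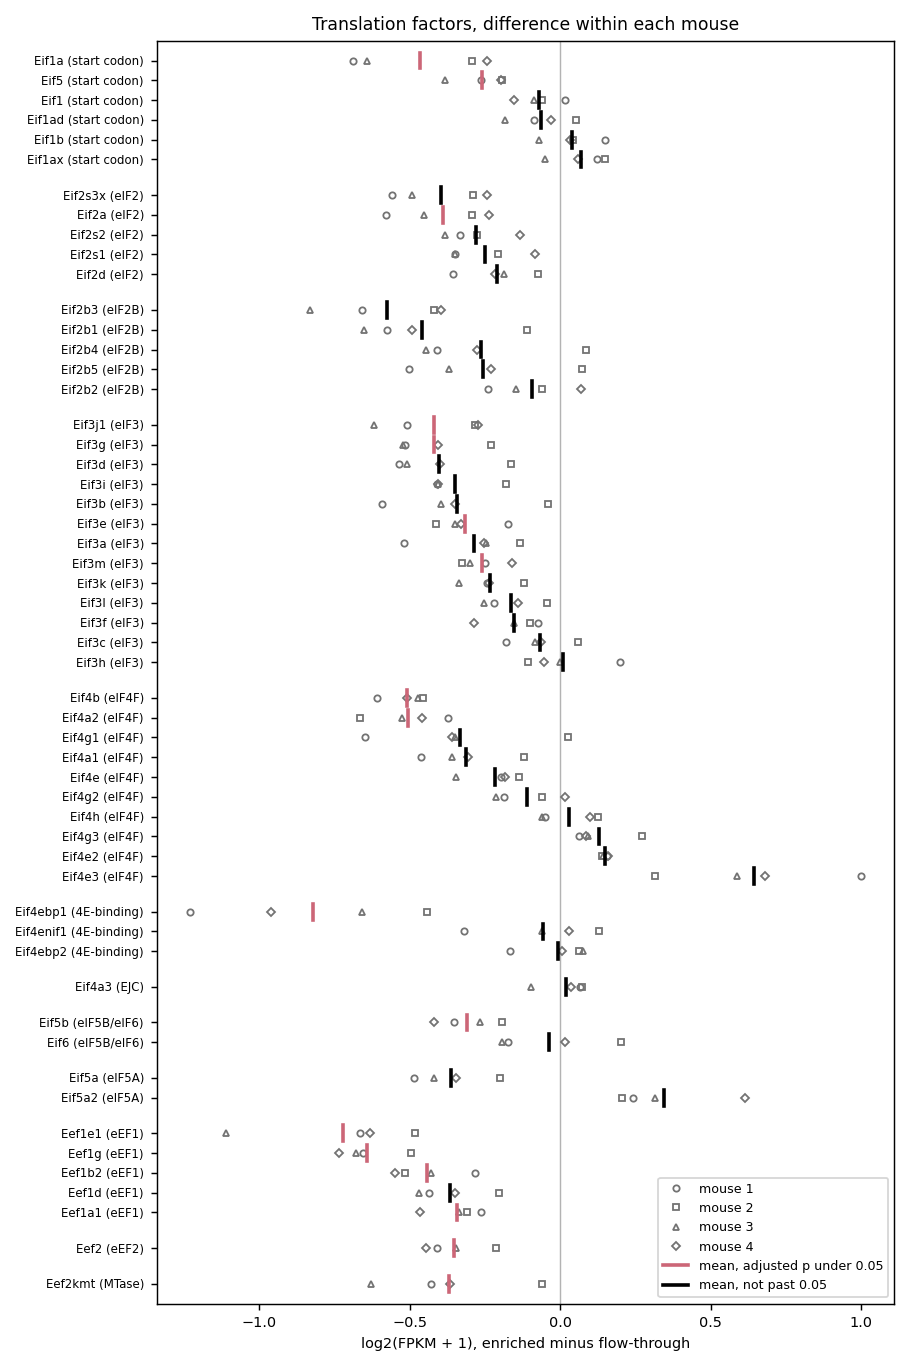
Difference between the fractions in each mouse (open symbols; x axis, log2(FPKM + 1), enriched minus flow-through) for the 54 factors by complex (y axis), with the mean of the 4 mice as a bar, red where the adjusted p was under 0.05. Only *Eif4e3*, *Eif5a2*, *Eif4g3* and *Eif4e2* have all 4 mice to the right of 0, and 34 factors have all 4 to the left.

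The eIF2 group delivers the initiator tRNA, and phosphorylation of its α subunit is the point where stress kinases act. All 5 tested genes were lower in 4 of 4 mice, but 1 passed without the block and 4 with it. Among all genes, 30.6% were lower in 4 of 4 mice, and 13.7% passed as lower without the block and 22.7% with it. *Eif2a*, which encodes a separate tRNA-binding factor and not the α subunit of eIF2, was at 61.2, 46.2, 54.6 and 43.9 FPKM in flow-through replicates 1 to 4 and 40.7, 37.5, 39.6 and 37.1 FPKM in the enriched replicates (log2 fold change -0.39, SE 0.11, limma adjusted p = 0.031). The γ subunit gene *Eif2s3x* was the most abundant of the group at 173, 119.9, 161 and 119 FPKM in flow-through replicates 1 to 4 and 118, 97.9, 114 and 100.1 FPKM in the enriched replicates. Its fractions stood apart, as the lowest flow-through library was above the highest enriched one, but flow-through replicates 1 and 3 lay far above 2 and 4, and it passed only with the block (log2 fold change -0.40, adjusted p = 0.068 without and 0.0067 with it). The β subunit *Eif2s2* (-0.28, 0.17 and 0.014) and the α subunit *Eif2s1* (-0.25, 0.21 and 0.029) also passed only with the block, although their fractions overlapped, and *Eif2d*, an alternative tRNA delivery and recycling factor, passed in neither (-0.21, 0.12 and 0.051). The ratio of *Eif2s2* to *Eif2s3x* was 0.600, 0.643, 0.641 and 0.629 on the flow-through side and 0.701, 0.649, 0.691 and 0.678 on the enriched side, higher in 4 of 4 mice without overlap. *Eif2s3y*, the Y-linked copy of the γ subunit gene, was listed at 0 in all 8 libraries of these female mice.

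eIF2B recharges eIF2 and has 5 subunits. None passed without the block, though 2 were lower at an unadjusted p under 0.05 (limma), and *Eif2b3* and *Eif2b1* were lower with the block. The shares of all genes were 21.3% lower without adjustment and 22.7% lower with the block. *Eif2b3* was at 25.4, 15.8, 26.9 and 16.2 FPKM in the flow-through against 15.7, 11.6, 14.7 and 12.0 FPKM in the enriched libraries. Every enriched library was lower, but the flow-through fell into high replicates 1 and 3 and low replicates 2 and 4 (log2 fold change -0.58, adjusted p = 0.055 without and 0.0037 with the block). *Eif2b1* had a log2 fold change of -0.46 (adjusted p = 0.097 without and 0.011 with the block). The catalytic ε subunit *Eif2b5* (-0.26), *Eif2b4* (-0.26) and *Eif2b2* (-0.10) did not pass in either fit. *Eif2b2*, the most abundant, was at 68.2, 53.0, 55.2 and 57.6 FPKM in the flow-through against 57.6, 50.8, 49.7 and 60.4 FPKM in the enriched libraries, with the fractions interleaved.

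Factors that choose the start codon were divided between related genes. *Eif1a*, an eIF1A gene, was at 35.7, 29.5, 39.2 and 30.3 FPKM in flow-through replicates 1 to 4 and 21.8, 23.9, 24.7 and 25.4 FPKM in the enriched replicates, without overlap (log2 fold change -0.47, SE 0.11, limma adjusted p = 0.013). Its X-linked counterpart *Eif1ax* was at 46.9, 30.1, 43.7 and 38.4 FPKM in flow-through replicates 1 to 4 and 51.1, 33.5, 42.1 and 40.0 FPKM in the enriched replicates, with the fractions overlapping (log2 fold change 0.07, SE 0.16, limma adjusted p = 0.78). The ratio of *Eif1a* to *Eif1ax* was 0.763, 0.982, 0.897 and 0.789 in flow-through replicates 1 to 4 and 0.427, 0.716, 0.588 and 0.636 in the enriched replicates, so that every enriched library was below every flow-through library. The sequences of both genes are alike, so how reads were divided between them is uncertain.

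*Eif5*, the GTPase-activating partner of eIF2, was at 91.4, 85.2, 104 and 86.6 FPKM in the flow-through against 76.1, 74.4, 79.3 and 75.4 FPKM in the enriched libraries (log2 fold change -0.26, SE 0.08, limma adjusted p = 0.039). *Eif1*, the scanning factor and the most abundant gene of this group, was at 382, 388, 398 and 431 FPKM in the flow-through against 386, 372, 374 and 388 FPKM in the enriched libraries, a difference that did not pass (log2 fold change -0.07, SE 0.07, limma adjusted p = 0.44). Its paralog *Eif1b* was at 70.2, 61.7, 65.9 and 62.9 FPKM in the flow-through against 77.8, 63.5, 62.7 and 64.3 FPKM in the enriched libraries (log2 fold change 0.04, SE 0.09, limma adjusted p = 0.77), and *Eif1ad* had a log2 fold change of -0.06. None of these 3 genes passed the test in either fit.

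eIF4F and its cofactors unwind the 5′ end of the mRNA and hold the cap. Of the 10 genes tested, 2 were lower and 0 higher, and with the block 5 were lower and 1 was higher. The shares of all genes were 13.7% lower and 14.1% higher, or 22.7% and 22.2% with the block. The count of lower genes without the block thus lay near its share. *Eif4b* (chr15:102073773-102097173, plus strand), a cofactor that stimulates the eIF4A helicase, was at 229.7, 186, 200.1 and 189 FPKM in flow-through replicates 1 to 4 and 150.4, 136, 144 and 133 FPKM in the enriched replicates. No enriched library reached any flow-through library (log2 fold change -0.51, SE 0.09, limma adjusted p = 0.0047). *Eif4h*, a cofactor with a related role, was at 205, 161, 188 and 158 FPKM in the flow-through against 198, 176, 180.4 and 169 FPKM in the enriched libraries and did not pass (log2 fold change 0.03, SE 0.10, limma adjusted p = 0.86). The ratio of *Eif4b* to *Eif4h* was 1.12, 1.16, 1.06 and 1.20 among flow-through libraries and 0.761, 0.774, 0.798 and 0.786 within enriched replicates, and its SD in the enriched fraction was 0.0162.

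Both initiation helicase genes had lower levels in 4 of 4 mice, where 30.6% of all genes did. *Eif4a2* was at 226, 302, 293 and 322 FPKM in flow-through replicates 1 to 4 and 174, 189.8, 203 and 234 FPKM in the enriched replicates (log2 fold change -0.51, SE 0.13, limma adjusted p = 0.024). Flow-through replicate 1 was below enriched replicate 4. *Eif4a1*, the more abundant helicase, was at 773, 553, 726 and 594 FPKM in flow-through replicates 1 to 4 and 561, 509, 566 and 479.6 FPKM in the enriched replicates and passed only with the block (log2 fold change -0.31, adjusted p = 0.088 without and 0.016 with it). Between mice the paralogs differed, since flow-through replicate 1 was the highest library for *Eif4a1* and the lowest flow-through library for *Eif4a2*. The ratio of *Eif4a1* to *Eif4a2* was 3.43, 1.83, 2.48 and 1.85 on the flow-through side and 3.22, 2.68, 2.79 and 2.05 on the enriched side, higher in 3 of 4 mice with overlap. *Eif4a3*, the helicase of the exon junction complex rather than of initiation, was at 128, 115, 131 and 115 FPKM in the flow-through against 134, 121, 122 and 118 FPKM in the enriched libraries (log2 fold change 0.02, SE 0.08, limma adjusted p = 0.87).

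Cap-binding genes did not share a direction. *Eif4e* was at 86.1, 66.5, 81.4 and 63.6 FPKM in flow-through replicates 1 to 4 and 75.0, 60.4, 63.9 and 55.9 FPKM in the enriched replicates and was lower with the block (log2 fold change -0.22, adjusted p = 0.24 without and 0.032 with it). *Eif4e2*, whose product 4EHP binds the cap but not eIF4G and is known as a repressor, was at 74.8, 64.9, 70.2 and 66.7 FPKM in flow-through replicates 1 to 4 and 83.5, 71.6, 77.5 and 74.6 FPKM in the enriched replicates (log2 fold change 0.15, SE 0.08, limma adjusted p = 0.18). *Eif4e3* (chr6:99625135-99666771, minus strand), the least abundant of the 3, was at 5.60, 12.8, 8.84 and 10.4 FPKM in flow-through replicates 1 to 4 and 12.2, 16.2, 13.8 and 17.3 FPKM in the enriched replicates. Its fractions overlapped by flow-through replicate 2 alone, it was higher in 4 of 4 mice, and it passed with the block (log2 fold change 0.64, SE 0.22, adjusted p = 0.058 without and 0.0052 with it). The ratio of *Eif4e* to *Eif4e2* was 1.15, 1.03, 1.16 and 0.954 among flow-through libraries and 0.898, 0.843, 0.824 and 0.750 within enriched replicates, without overlap. The ratio of *Eif4e* to *Eif4e3* was 15.4, 5.19, 9.21 and 6.10 on the flow-through side and 6.16, 3.73, 4.64 and 3.23 on the enriched side of mice 1 to 4, lower in each mouse but with overlap between fractions.

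Of the scaffolds, *Eif4g1* was at 184, 121, 167 and 131 FPKM in the flow-through against 117, 123, 131 and 102 FPKM in the enriched libraries and passed only with the block (log2 fold change -0.33, adjusted p = 0.12 without and 0.043 with it). It was lower in 3 of 4 mice. *Eif4g2*, a homolog that lacks the eIF4E-binding part, was at 339, 292, 362 and 298 FPKM in the flow-through against 297, 280.4, 312 and 302 FPKM in the enriched libraries (log2 fold change -0.11, SE 0.09, limma adjusted p = 0.37). *Eif4g3* was at 28.5, 34.3, 36.0 and 36.1 FPKM in the flow-through against 29.8, 41.7, 38.5 and 38.4 FPKM in the enriched libraries (log2 fold change 0.13, SE 0.12, limma adjusted p = 0.46), and was the higher in the enriched library of all 4 mice.

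The largest fold change of all factors was that of a translational repressor. *Eif4ebp1* (chr8:27260329-27276674, plus strand, protein-coding) encodes 4E-BP1, which occupies eIF4E when it is not phosphorylated by mTORC1. It was at 75.7, 38.1, 46.7 and 44.0 FPKM in flow-through replicates 1 to 4 and 31.7, 27.8, 29.3 and 22.1 FPKM in the enriched replicates. The highest enriched library was below the lowest flow-through library (log2 fold change -0.82, SE 0.21, limma adjusted p = 0.02), and flow-through replicate 1 was the highest of all. *Eif4ebp2*, which encodes its relative, was at 88.0, 77.2, 78.9 and 77.3 FPKM in flow-through replicates 1 to 4 and 78.3, 80.7, 83.1 and 77.5 FPKM in the enriched replicates and did not pass the test (log2 fold change -0.01, SE 0.07, limma adjusted p = 0.96). The ratio of *Eif4ebp1* to *Eif4ebp2* was 0.860, 0.494, 0.593 and 0.570 among flow-through libraries and 0.405, 0.344, 0.352 and 0.286 within enriched replicates. *Eif4enif1*, which encodes the eIF4E transporter 4E-T, had a log2 fold change of -0.06, and *Eif4ebp3* did not exceed 0.296 FPKM in any library.

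**Figure D4:**
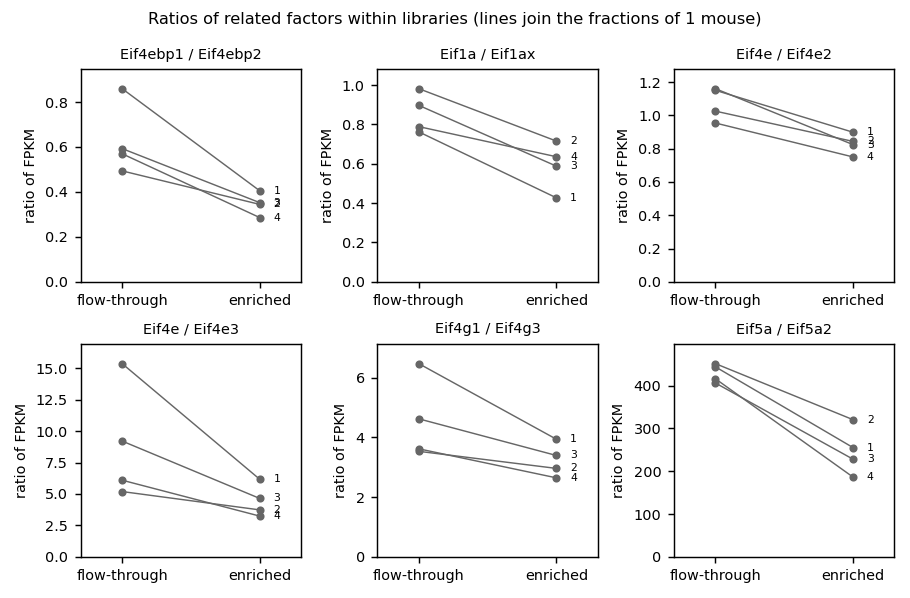
Ratio of FPKM between related factors (y axes, from 0) among flow-through libraries and enriched library of each mouse (x axis), with a line for each of the 4 mice, numbered at the right. In these 6 ratios all lines descend. *Eif2s2* to *Eif2s3x*, *Eif4a1* to *Eif4a2*, *Eif3j1* to *Eif3j2* and *Eif4g1* to *Eif4g2*, which are not drawn, did not descend in all 4 mice. For *Eif4ebp1* to *Eif4ebp2*, *Eif1a* to *Eif1ax*, *Eif4e* to *Eif4e2* and *Eif5a* to *Eif5a2* the fractions do not overlap.

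eIF5A helps the ribosome past difficult peptide bonds and carries the amino acid hypusine. *Eif5a* was at 1339, 922, 1145 and 957 FPKM in flow-through replicates 1 to 4 and 957, 802, 856 and 753 FPKM in the enriched replicates. It was lower in 4 of 4 mice but passed only with the block (log2 fold change -0.36, adjusted p = 0.076 without and 0.0084 with it), and flow-through replicate 2 was below enriched replicate 1. *Eif5a2*, its scarce paralog, was at 3.01, 2.04, 2.82 and 2.30 FPKM in the flow-through against 3.75, 2.50, 3.75 and 4.04 FPKM in the enriched libraries. This gene was higher in 4 of 4 mice and also passed only with the block (log2 fold change 0.34, adjusted p = 0.12 without and 0.04 with it). The ratio of *Eif5a* to *Eif5a2* was 407 to 452 among flow-through libraries and 186 to 321 in the enriched libraries.

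Of the late factors, *Eif5b*, the GTPase that joins the subunits, was at 41.4, 35.0, 39.4 and 42.1 FPKM in the flow-through against 32.2, 30.5, 32.6 and 31.3 FPKM in the enriched libraries (log2 fold change -0.31, SE 0.08, limma adjusted p = 0.02). *Eif6*, which keeps free large subunits apart from small ones, was at 100.3, 74.3, 92.4 and 86.0 FPKM in the flow-through against 88.8, 85.6, 80.7 and 87.0 FPKM in the enriched libraries (log2 fold change -0.04, SE 0.10, limma adjusted p = 0.8). The first stood apart between fractions, and the second was interleaved. *Eif2c5* and *Eif4e1b* were listed at 0 in all libraries. The rule took in *Eif2c5* by its symbol, although the name belongs to the argonaute family and the gene is annotated as a long non-coding RNA.

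Factors whose mRNAs are known to carry a TOP tract were described as a group. Of these 9, *Eef1a1*, *Eef1b2*, *Eef1g*, *Eef2*, *Eif3e* and *Eif4b* were lower. *Eef1d* passed only with the block, which made 7 lower, and *Eif3f* and *Eif3h* passed in neither fit. The median log2 fold change of the 9 was -0.35. Of all genes tested, 13.7% were lower, or 22.7% with the block. Of the 45 tested factors outside the list, 11 were lower (25 with the block) and the median was -0.26. Cytosolic ribosomal proteins, whose mRNAs are TOP mRNAs as a class, were lower for 73 of 80 tested genes (74 with the block) with a median of -0.41. Mitochondrial ribosomal proteins were lower for 20 of 77 (39 with the block) with a median of -0.26 and 1 higher. A difference between these groups was not tested.

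Some libraries stood high or low for most factors. Flow-through replicate 1 was the highest flow-through library for 34 of the 54 factors and flow-through replicate 2 the lowest for 35. Enriched replicate 1 was likewise the highest enriched library for 35 and enriched replicate 4 the lowest for 29. The median coefficient of variation over factors was 12.7% among flow-through libraries and 6.96% in the enriched fraction. In contrast, flow-through replicate 1 was the lowest flow-through library for 8 factors, *Eef1a1*, *Eef1b2*, *Eif1*, *Eif3e*, *Eif3h*, *Eif4a2*, *Eif4e3* and *Eif4g3*. The erythroid genes had their highest sums in the same libraries, at 3183 FPKM in flow-through replicate 1 and 1643 FPKM in enriched replicate 1, and flow-through replicate 1 had the lowest T-cell sum. The part of these differences in the results was not tested. Without flow-through replicate 1, 14 of the 17 factors were still called lower and the median log2 fold change was -0.23.

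**Figure D5:**
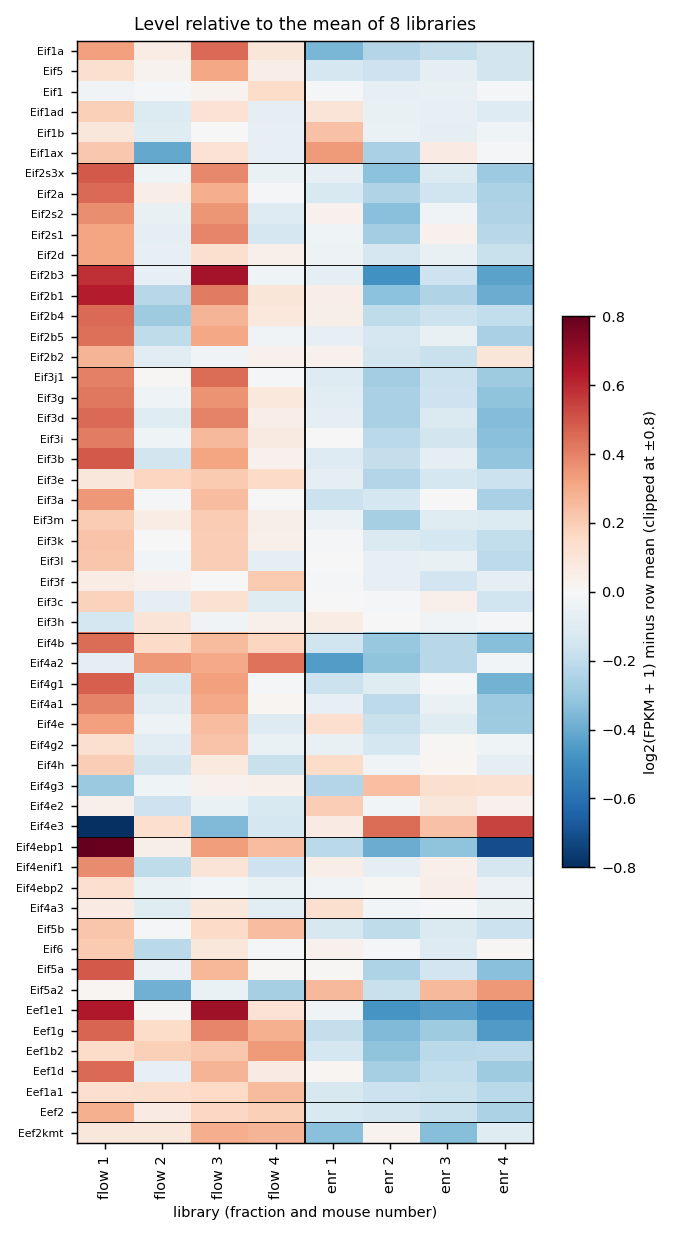
Level of the 54 factors (rows, by complex) in the 8 libraries (columns), as log2(FPKM + 1) minus the mean of the row, with red above and blue below the mean. Flow-through replicates 1 and 3 are red in most rows, and *Eif4e3* is darkest blue in flow-through replicate 1. The color scale is clipped at 0.8.

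A second scaling was applied because the T-cell sum differed between libraries. When libraries were scaled to *Cd3d*, *Cd3e*, *Cd3g*, *Cd247*, *Lck* and *Zap70*, the median log2 fold change over genes tested moved from -0.018 to -0.34 and that of the factors from -0.27 to -0.62, so that the factors lay 0.28 below all genes where they had lain 0.25 below them. The 6 genes used had log2 fold changes from 0.11 (*Cd3d*) to 0.64 (*Zap70*, limma adjusted p = 0.026) themselves. Dividing by them thus moves fold changes downward for genes in general. Under this scaling 8 factors were lower, where 10.1% of all genes were, and 0 were higher, where 4.5% of all genes were. The split of all calls was 548 higher and 1235 lower genes (30.7% higher), against 1720 higher and 1664 lower (50.8% higher) without it. The 8 were *Eef1b2*, *Eef1g*, *Eef1a1*, *Eef1e1*, *Eif3e*, *Eif4b*, *Eif4a2* and *Eef2kmt*, all of them among the 17.

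Calls also depended on single libraries. *Eef1b2*, *Eef1g*, *Eef1a1*, *Eef2*, *Eif3e*, *Eif4b* and *Eif1a* remained lower in all 8 fits that left out 1 library, and the other 10 of the 17 were lost in at least 1. Of these 7, *Eef1a1* was lost when no filter on low values was applied (adjusted p = 0.39, with a range of 0.0031 to 0.39 over its alternatives), *Eef2* with no filter (0.064, range 0.0076 to 0.064) and with T-cell scaling (0.058), and *Eif1a* with T-cell scaling (0.055, range 0.0092 to 0.055). *Eif4ebp1* was lost without enriched replicate 2 or 4, with log2 fold changes from -0.94 to -0.62 over the 8 fits. *Eef1e1* (-0.84 to -0.62), *Eif2a* (-0.46 to -0.30) and *Eif3g* (-0.50 to -0.35) were lost without flow-through replicate 3 or enriched replicate 2, 3 or 4, and *Eif5b* (-0.36 to -0.28) without flow-through replicate 3 or enriched replicate 2 or 4. *Eif4a2* (-0.61 to -0.44) was lost without flow-through replicate 3 or 4 or enriched replicate 1, 2 or 3, and *Eef2kmt* (-0.44 to -0.32) without flow-through replicate 3 or 4 or enriched replicate 1, 3 or 4. *Eif3m* (-0.29 to -0.21), *Eif3j1* (-0.50 to -0.34) and *Eif5* (-0.29 to -0.20) were lost in 5, 6 and 6 of the 8 fits, among them those without flow-through replicate 1 or 3 or enriched replicate 2, 3 or 4.

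Regulators and partners of the factors were examined from lists of 52 further genes, of which 50 were tested, 17 were lower and 2 higher, where 13.7% and 14.1% of all genes were, or 25 and 2 with the block, where 22.7% and 22.2% of all genes were. The smaller counts among them, such as 1 of 6 mitochondrial factors, lie near these shares. Of the kinases and the stress arm, 2 of 9 were lower, and *Ddit3* with the block (log2 fold change -0.30, adjusted p = 0.051 without and 0.016 with it). *Eef2k*, the kinase that inactivates eEF2, was at 36.7, 19.7, 24.0 and 22.2 FPKM in flow-through replicates 1 to 4 and 12.2, 12.7, 12.2 and 10.6 FPKM in the enriched replicates (log2 fold change -1.01, SE 0.17, limma adjusted p = 0.0051). *Eef2* had changed by -0.35, and the difference between kinase and target was not tested. *Ppp1r15a*, which encodes the inducible phosphatase subunit for eIF2α, was at 50.4, 55.1, 60.0 and 83.6 FPKM in the flow-through against 31.5, 38.0, 32.3 and 43.0 FPKM in the enriched libraries (log2 fold change -0.75, SE 0.17, limma adjusted p = 0.013). The eIF2α kinases *Eif2ak1*, *Eif2ak2*, *Eif2ak3* and *Eif2ak4* did not pass, with log2 fold changes of -0.09, -0.12, 0.18 and -0.22.

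Of 14 genes of mTORC1 and MNK control, 1 was higher and 3 were lower, where 14.1% and 13.7% of all genes were. Under T-cell scaling 0 were higher and 2 lower, where 4.5% and 10.1% of all genes were. *Ddit4*, which encodes REDD1, was at 18.8, 33.0, 23.7 and 34.8 FPKM in flow-through replicates 1 to 4 and 46.6, 48.7, 44.5 and 51.7 FPKM in the enriched replicates. All enriched libraries were above all flow-through libraries (log2 fold change 0.81, SE 0.18, limma adjusted p = 0.013). *Akt1s1* was lower without overlap (log2 fold change -0.48, limma adjusted p = 0.0034). *Mlst8* (-0.33) and *Larp1* (-0.31), whose product binds TOP mRNAs, were lower too. *Pdcd4* (-0.31, adjusted p = 0.093 without and 0.025 with the block) passed only with the block, and *Mtor* (0.04) and *Rptor* (-0.01) did not pass.

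Among 5 poly(A)-binding genes, 3 were lower and 1 was higher, where 13.7% and 14.1% of all genes were. *Pabpc1*, which binds the poly(A) tail and eIF4G, was at 808, 766, 739 and 719.7 FPKM in the flow-through against 463, 543, 578 and 469 FPKM in the enriched libraries (log2 fold change -0.57, SE 0.09, limma adjusted p = 0.0041). *Pabpc4* (-0.86) and *Paip2* (-0.27) were lower too, and *Paip2b* was higher (0.38). The last 2 encode inhibitors of poly(A)-binding protein.

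The counts that follow stand beside 13.7% of all genes tested being lower, or 22.7% with the block. Termination and recycling genes were lower for 2 of 7 (*Abce1*, -0.59, and *Hbs1l*, -0.33), and with the block also for *Gspt1* (-0.34, adjusted p = 0.13 without and 0.0069 with it) and *Etf1* (-0.23, 0.26 and 0.041). Of 9 genes that modify eIF5A with hypusine or eEF2 with diphthamide, 6 were lower, among them *Dph1* (21.3, 14.7, 19.1 and 18.5 FPKM in the flow-through against 10.6, 9.24, 9.73 and 10.3 FPKM in the enriched libraries, log2 fold change -0.81, adjusted p = 0.0022), *Dph5* (-0.63), *Dohh* (-0.49), *Dph2* (-0.42) and *Dph6* (-0.36), and *Dnajc24* (-0.23) was added with the block (adjusted p = 0.11 without and 0.038 with it). Mitochondrial factors were lower for 1 of 6 (*Mtif2*, -0.33), or 4 with the block, which added *Tufm* (-0.47, adjusted p = 0.052 without and 0.011 with it), *Gfm1* (-0.46, 0.089 and 0.017) and *Gfm2* (-0.30, 0.092 and 0.043).

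Promoter sequence was read to see what the factors share beyond their levels. RefSeq promoter windows (build GRCm38.p6) were found for 43 of the 54 tested factors, and CACGTG, the E-box that MYC is known to bind, occurred in the 250 bases before an annotated start of 10 of them (23.3%), against 10.2% of 8742 tested genes with a window. The same count over both strands was 28 factors (65.1% against 62.4% of genes) for GGCGGG, 12 (27.9% against 16.9%) for CCGGAAG, 4 (9.30% against 7.44%) for TATAAA and 0 (against 3.08%) for TGACGTCA. The motifs were searched separately, and none contains another. Among the 13 matched factors that were lower without the block, 1 (*Eef2*) held CACGTG, where 10.2% of all matched genes did. No share was computed for the factors lower in either fit. Stretches with the E-box in capitals, 5′ to 3′ on the strand of the gene, are shown for the 6 factors holding it that were lower in either fit, which are *Eef2* and 5 that were lower only with the block.
Eef2 (chr10:81176573-81176608, plus strand): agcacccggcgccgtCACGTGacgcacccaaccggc
Eif3k (chr7:28981912-28981947, minus strand): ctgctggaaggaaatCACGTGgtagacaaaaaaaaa
Eif4a1 (chr11:69672592-69672627, minus strand): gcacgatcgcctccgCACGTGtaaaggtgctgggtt
Eif4e (chr3:138527025-138527060, plus strand): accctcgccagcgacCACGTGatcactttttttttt
Eif4g1 (chr16:20672658-20672693, plus strand): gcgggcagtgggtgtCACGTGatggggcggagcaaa
Eif5a (chr11:69921440-69921475, minus strand): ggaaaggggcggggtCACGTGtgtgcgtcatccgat
In these, the E-box began 43, 44, 189, 228, 54 and 74 bases before the RefSeq start of its window, in the order shown. The stretches of *Eif4e*, *Eif4g1* and *Eif5a* lie inside the GENCODE span of their gene, so that these starts are downstream of its outermost annotated start. A match describes the letters of the window and no binding was measured.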

How the data were processed

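The FPKM values were made by the authors and deposited as 1 table for the 8 libraries. Per the study's methods and processing notes, reads were aligned with TopHat to mm10 and FPKM were computed with Cufflinks 2.1.1, with correction for multiply mapped reads and fragment bias. Strand was not used under the default settings, so genes overlapping on opposite strands and close paralogs have uncertain values. The annotation release is not given in the sources used here. Counts were not used, and the depth, estimated from the steps of low single-transcript genes, was 14800000 to 17800000 fragments. Pearson correlations between libraries of log2(FPKM + 1) were 0.943 to 0.986 within the flow-through and 0.966 to 0.987 within the enriched fraction.

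Genes whose mean over all libraries reached 1 FPKM were fitted on log2(FPKM + 1), which understates changes of low genes, with limma 3.58.1 in R 4.3.3 (trended variance, no block), and p-values were adjusted by Benjamini-Hochberg over 12166 genes. Fold changes are enriched minus flow-through. Per the protocol text each mouse gave both fractions, and libraries were matched to mice by replicate number, as no animal identifier was given. Deviations from the fraction mean correlated at 0.660, 0.589, 0.308 and 0.471 for equal numbers and at -0.600 to 0.412 for unlike ones (0.412 for flow-through 2 with enriched 4), and each library correlated best with its own number. The fit with the mouse as a block is given where it changed a call of a factor or regulator or the count of a list. P-values without the block rest on the spread between libraries within each fraction and leave out the pairing by mouse. Those with the block rest on the spread of the differences within these 4 mice. Alternatives were a pseudocount of 0.1, no filter, a minimum of 5 FPKM, median-ratio scaling, T-cell scaling and leaving out each library. Named in full were factors past an adjusted p of 0.05, the most abundant factor of each complex and sets of paralogs. For regulators, up to 5 genes past the threshold per list were named, and those named beside them were chosen after their values were seen. The factors and lists were chosen with earlier results of these data known. Gene positions and promoters are from GENCODE M21 and RefSeq (GRCm38.p6).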

Additional observations from a re-analysis of the deposited data

Results flagged for a closer look

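In 4 of 108 groups of 4 libraries (54 factors in each fraction) 1 library stood apart from the other 3 (Dixon's ratio above its critical value). Chance alone flags about 1 in 20 groups, or 5.4 of 108. In enriched replicate 1, *Eif2b4* was at 28.2 FPKM (23.6 to 24.1 FPKM in the other enriched libraries), *Eif1b* at 77.8 FPKM (62.7 to 64.3 FPKM) and *Eef1e1* at 36.1 FPKM (25.6 to 27.0 FPKM). In flow-through replicate 1, *Eif4ebp2* was at 88.0 FPKM (77.2 to 78.9 FPKM in the rest of that fraction).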

How the results depend on the processing

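With the mouse as a replicate block, 32 factors were lower and 2 higher, and 2763 and 2705 of all genes, against 17, 0, 1664 and 1720 without it. T-cell scaling gave 8 lower factors, 548 higher genes and a median over factors of -0.62, and median-ratio scaling gave 1 higher factor (*Eif4e3*). Leaving out 1 library gave 8 to 29 lower and 0 to 1 higher factors, 939 to 1780 lower and 1107 to 1813 higher genes. Signs turned, with no call in either fit, for these factors. Under T-cell scaling the log2 fold changes were -0.20 (*Eif4e2*), -0.28 (*Eif1ax*), -0.22 (*Eif4g3*), -0.33 (*Eif4h*), -0.31 (*Eif1b*), -0.34 (*Eif4a3*) and -0.35 (*Eif3h*). When 1 library was left out, they ranged over -0.0553 to 0.166 (*Eif1ax*), -0.0274 to 0.0981 (*Eif4h*), -0.0343 to 0.0737 (*Eif1b*), -0.0213 to 0.051 (*Eif4a3*), -0.116 to 0.0265 (*Eif6*), -0.0251 to 0.0378 (*Eif4ebp2*), -0.133 to 0.0604 (*Eif4enif1*) and -0.0353 to 0.045 (*Eif3h*). The cause was not tested. Of the 17 factors called, 13 remained lower with no filter, 16 with median-ratio scaling and 17 with the block, with a pseudocount of 0.1 and with a minimum of 5 FPKM.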
